A study of Mus musculus with 27 samples.

Results

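Bdnf, Ntf3, Ntrk2, Ntrk3, Ngfr, Sort1 and Vgf, the neurotrophin genes and receptors examined here with one granule peptide, were followed in 2 brain regions of mice with and without a deleted Igf2 enhancer (Igf2enh-/- and wild-type), the frontal cortex and the striatum. They were chosen by symbol and matched by Ensembl identifier, and all 7 were among the 52636 genes counted. Total RNA depleted of ribosomal RNA was sequenced as single-end reads of 75 bases in 27 libraries. Wild-type mice and mice homozygous for the deletion were about 2.5 months old and all had the 129S1 background. In Igf2enh-/- mice a 4.9 kb fragment between H19 and Igf2 is missing from every cell and 1 loxP site is left in its place, whereas wild-type mice carry the intact fragment. The selection cassette of the targeted line had been removed by a cross to an Hprt-CRE transgenic female. Frontal cortex was taken from 6 wild-type mice (3 females, 3 males) and 6 Igf2enh-/- mice (3 females, 3 males). Striatum was taken from 7 wild-type mice (3 females, 4 males) and 8 Igf2enh-/- mice (4 females, 4 males). The labels do not say which cortical and striatal libraries came from the same mouse, so they were treated as independent, and each library goes by its label's number.

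Neurotrophins are secreted growth factors that keep neurons alive and adjust synapses. They are made as precursors, packed into dense-core granules, cleaved by proprotein convertases and bound by Trk receptor kinases, while the precursors bind p75 together with sortilin. In the adult brain, striatal neurons make little BDNF of their own and receive most of it from the axons of cortical neurons, and the medium spiny neurons, the main cell type of the striatum, carry its receptor TrkB.

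Bdnf lies on the plus strand of chromosome 2 from 109674700 to 109727043 in the GRCm38.p6 annotation of RefSeq, and its transcripts start at several alternative 5′ exons. Ntf3 lies on the minus strand of chromosome 6 (126101412 to 126166772), Ntrk2 on the plus strand of chromosome 13 (58806472 to 59133970) and Ngfr on the minus strand of chromosome 11 (95568818 to 95587698). Ntrk3 spans 78179986 to 78581034 on chromosome 7, Sort1 spans 108283974 to 108361519 on chromosome 3, and Vgf spans 137025301 to 137033351 on chromosome 5. The counts are summed over whole genes. They do not separate the Bdnf 5′ exons, or the kinase and the truncated forms of TrkB and TrkC.

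Promoter windows, from 250 bases before to 50 bases after a start, were taken from a table of RefSeq starts that is not complete. It matched 4 of the 7 genes, with 11 windows in all, of which 7 belonged to Bdnf. Windows of Ntrk3, Sort1 and Vgf were not analysed here. The windows were searched on both strands for TGACG, the half-site bound by CREB-type factors, for its full palindrome TGACGTCA, in which the half-site is contained, and for the E-box CACGTG. The half-site was in 1 of the 11 windows, against 20.8% of all 32851 windows, and the palindrome in 0 of 11, against 1.79%. The E-box was in 1 window, of Ntf3, against 7.15%. The 250 bases before a start are shown for the members with the largest regional differences in the 2 directions, Bdnf at its window with the half-site and Ngfr. Capitals mark the half-site, which starts at base 216 and reads on the other strand. The letters describe these windows, and no binding was measured.
Bdnf, chr2:109692186-109692435, plus strand: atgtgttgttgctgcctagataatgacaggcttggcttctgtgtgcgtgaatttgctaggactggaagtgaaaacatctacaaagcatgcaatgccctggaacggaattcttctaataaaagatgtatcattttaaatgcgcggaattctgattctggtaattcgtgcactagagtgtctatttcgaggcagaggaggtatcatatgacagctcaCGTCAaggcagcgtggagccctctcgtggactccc
Ngfr, chr11:95587699-95587948, minus strand: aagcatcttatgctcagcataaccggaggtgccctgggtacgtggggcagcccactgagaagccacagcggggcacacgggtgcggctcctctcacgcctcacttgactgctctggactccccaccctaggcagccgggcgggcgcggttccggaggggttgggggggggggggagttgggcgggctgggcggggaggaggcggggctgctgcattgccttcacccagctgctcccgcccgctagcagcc
The G and C content was 45.6% in the Bdnf stretch and 70.4% in the Ngfr stretch.

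Library totals ran from 23686945 to 33926904 counts, so that 1 CPM (a count scaled to the library total) stood for 23.7 to 33.9 reads. Levels below are CPM scaled by the trimmed mean of M-values (TMM) over all 27 libraries. Igf2, the gene beside the deletion, had medians of 71.2 CPM (52.1 to 107) in wild-type and 119 CPM (88.2 to 171) in Igf2enh-/- frontal cortex, and of 36.7 CPM (33.8 to 44.3) and 51.5 CPM (46.3 to 261) in striatum. The labelled regions had their defining markers. The 10 cortical projection neuron markers, led by the vesicular glutamate transporter Slc17a7, summed to 2401 to 2740 CPM in frontal cortex and 164 to 1364 CPM in striatum. The 10 medium spiny neuron markers, led in striatum by Pde10a, summed to 176 to 260 CPM and 3788 to 10613 CPM. Between regions all 10 cortical and all 12 meningeal fibroblast markers (led by Igfbp2) were called lower in striatum in both genotypes, and all 10 medium spiny neuron and all 10 oligodendrocyte markers (led by Mbp) higher. Of the 10 choroid plexus markers tested, 4 were called higher in wild-type and 8 in Igf2enh-/- mice. Enpp2 led this list in wild-type striatum and Ttr in Igf2enh-/- striatum, with 404 ± 1082 CPM (SD, n = 8). The choroid plexus calls were not retested without library 15, described below. By edgeR's quasi-likelihood test genotype called 0 of 53 markers tested in frontal cortex (12 with an unadjusted p under 0.05) and 0 of 54 in striatum (3 unadjusted). Some libraries stood apart. Striatal library 20 (wild-type, male) had the highest cortical and the lowest medium spiny neuron sum, and its oligodendrocyte sum of 10635 CPM was the highest. Striatal library 15 (Igf2enh-/-, female) had a choroid plexus sum of 4703 CPM, where all other striatal libraries had 172 to 366 CPM. In wild-type striatum that sum was mostly Enpp2, with 201 ± 63.0 CPM (SD, n = 7), and 7 of the 12 listed genes had means under 1 CPM. Cortical library 1 (Igf2enh-/-, female) had the lowest cortical oligodendrocyte sum, at 990 CPM, and the highest meningeal fibroblast sum, at 205 CPM. Between 2 libraries of a group, counts differed by 2.2 to 80.8 times sampling noise (chi-square per gene, 79 pairs), so no library was counted as deposited more than once.

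Levels between genes were compared per kilobase of exon, with exon lengths from an older annotation (GENCODE vM1). In frontal cortex Vgf was highest at 103 ± 11.3 CPM per kb (SD, n = 12), followed by Sort1 at 87.8 ± 4.48, Ntrk3 at 49.2 ± 2.76 and Ntrk2 at 43.3 ± 2.38 CPM per kb. Bdnf lay far lower at 6.38 ± 1.52 CPM per kb, above Ntf3 at 0.343 ± 0.133 and Ngfr at 0.170 ± 0.0478 CPM per kb. The ranges of Vgf and Sort1 overlapped in frontal cortex, as did those of Ntrk3 and Ntrk2 and those of Ntf3 and Ngfr. In striatum the order was Vgf at 99.3 ± 13.7 CPM per kb (SD, n = 15), Sort1 at 69.6 ± 4.53, Ntrk3 at 49.1 ± 3.86, Ntrk2 at 38.5 ± 3.55, Bdnf at 1.17 ± 0.730, Ngfr at 0.689 ± 0.451 and Ntf3 at 0.201 ± 0.298 CPM per kb. There the ranges overlapped between Vgf and Sort1, between Ntrk3 and Ntrk2, and among Bdnf, Ngfr and Ntf3. Vgf and the receptors other than Ngfr were thus the abundant members in both regions, and the ligands and Ngfr the scarce ones.

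**Figure D1:**
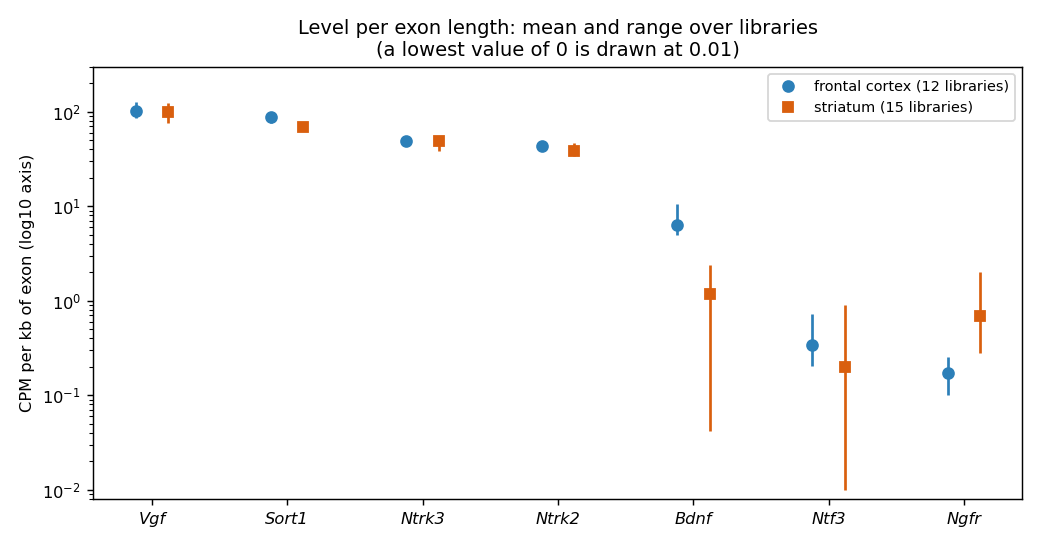
Level of each gene per kilobase of exon (vertical axis, log10) in frontal cortex (circles, 12 libraries) and striatum (squares, 15 libraries); symbols are means and lines the lowest to highest library. Vgf and Sort1 are highest in both regions, and Bdnf is 6.38 CPM per kb in frontal cortex and 1.17 in striatum.

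Whether ligand and receptor transcripts differ between cortex and striatum was asked in each genotype, in 1 edgeR fit of the 4 groups with sex as a term. Bdnf and Ngfr differed most and in opposite directions. Bdnf was lower and Ngfr higher in striatum, Sort1 and Ntrk2 were modestly lower in striatum, and Ntf3, Ntrk3 and Vgf did not pass the test. Thus 4 of the 7 members were called in wild-type mice, at an adjusted p under 0.05 in edgeR's quasi-likelihood test, against 63.4% of the 17963 genes tested. In Igf2enh-/- mice the same 4 were called, against 64.9%. In both genotypes 3 members were lower and 1 was higher in striatum, where 30.8% of all genes were lower and 32.6% higher in wild-type mice and 31.6% and 33.2% in Igf2enh-/- mice. The members' share called is close to that of all genes. Bulk tissue does not tell fewer cells of a type from less RNA per cell.

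Among the ligands, Bdnf, the main TrkB ligand of the adult forebrain, had levels of 31.1 to 41.2 CPM (median 38.0) in wild-type frontal cortex and 0.242 to 14.0 CPM (median 7.79) in wild-type striatum. In Igf2enh-/- mice it had 29.0 to 62.1 CPM (median 32.4) in frontal cortex and 3.65 to 11.5 CPM (median 6.16) in striatum. The regions did not overlap in either genotype. Bdnf fell by 2.44 on the log2 scale from frontal cortex to striatum in wild-type mice (standard error 0.44, adjusted p = 3.0e-05 by edgeR's quasi-likelihood test) and by 2.43 in Igf2enh-/- mice (standard error 0.42, adjusted p = 1.6e-05). Cortical library 1 held the highest level, and striatal libraries 22 and 14, both wild-type, held 0.242 and 0.446 CPM, from 7 and 11 reads.

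Ntf3, which encodes neurotrophin-3, the preferred TrkC ligand, was near the detection limit. It had 0.293 to 0.599 CPM (median 0.385) in wild-type and 0.414 to 1.03 CPM (median 0.492) in Igf2enh-/- frontal cortex, from 8 to 26 reads. In striatum it had 0 to 1.24 CPM (median 0.0353) in wild-type and 0 to 1.29 CPM (median 0.0963) in Igf2enh-/- libraries, and 1 library of each genotype had no read. A count of 0 allows up to 3 reads, and this limit covers counting error only. The striatal libraries 26 and 19 stood above all cortical libraries while 12 of the other 13 lay below the cortical median of 0.418 CPM. The log2 difference between striatum and frontal cortex was -0.43 in wild-type mice (standard error 0.74, adjusted p = 0.63, edgeR) and -1.05 in Igf2enh-/- mice (standard error 0.69, adjusted p = 0.19). Without library 19 the latter became -2.02 with an adjusted p of 0.013, and without library 26 the former became -1.59 with an adjusted p of 0.078.

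Among the receptors, Ntrk2, which encodes TrkB, had 614 to 662 CPM (median 648) in frontal cortex and 513 to 696 CPM (median 545) in striatum of wild-type mice. In Igf2enh-/- mice it had 627 to 732 CPM (median 654) and 553 to 657 CPM (median 595). The regions overlapped in both genotypes, in wild-type mice through library 26 alone. The log2 difference was -0.20 in wild-type mice (standard error 0.05, adjusted p = 0.0025, edgeR) and -0.16 in Igf2enh-/- mice (standard error 0.05, adjusted p = 0.011). Astrocytes also express Ntrk2, mostly in its truncated form. The 10 astrocyte markers, led by Slc1a2 in both regions, summed to 4261 to 5081 CPM in frontal cortex and 3694 to 5153 CPM in striatum. Of these 10, 2 were called higher and 2 lower in striatum in wild-type mice, and 2 and 6 in Igf2enh-/- mice, and their part in the Ntrk2 difference was not tested.

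Ntrk3, which encodes TrkC, had 241 to 264 CPM (median 250) in frontal cortex and 203 to 282 CPM (median 267) in striatum of wild-type mice, and 243 to 290 CPM (median 259) and 231 to 273 CPM (median 258) in Igf2enh-/- mice. Its regions overlapped. The log2 difference was 0.06 in wild-type mice (standard error 0.05, adjusted p = 0.35, edgeR) and -0.05 in Igf2enh-/- mice (standard error 0.05, adjusted p = 0.40). Library 20 was lowest among the wild-type striatal libraries, and without it the wild-type difference was 0.12 with an adjusted p of 0.011.

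Ngfr, which encodes the p75 receptor shared by all neurotrophins, was scarce, with 0.346 to 0.801 CPM (median 0.50) in wild-type and 0.452 to 0.870 CPM (median 0.636) in Igf2enh-/- frontal cortex, from 9 to 22 reads. In striatum it had 0.953 to 3.14 CPM (median 1.56) in wild-type and 1.11 to 7.02 CPM (median 2.22) in Igf2enh-/- mice, from 29 to 190 reads. All 15 striatal libraries lay above all 12 cortical ones. Ngfr was higher in striatum by 1.84 on the log2 scale in wild-type mice (standard error 0.42, adjusted p = 4.5e-04, edgeR) and by 2.11 in Igf2enh-/- mice (standard error 0.40, adjusted p = 4.4e-05). In the forebrain p75 is best known from basal forebrain cholinergic neurons. The 5 cholinergic markers matched summed to 2.49 to 8.50 CPM in frontal cortex and 55.4 to 168 CPM in striatum, where Slc5a7, the choline transporter, led, and all 5 were called higher in striatum in both genotypes. In Igf2enh-/- striatum library 19, with the highest Ngfr, had a cholinergic sum of 124 CPM, and library 21, with the lowest, had 110 CPM. The lowest and highest sums of that group, 86.2 and 137 CPM, were in libraries 23 and 27, with 3.51 and 1.16 CPM of Ngfr. In wild-type striatum library 22, with the highest Ngfr, had the highest cholinergic sum, 168 CPM, and library 26, with the lowest Ngfr, had 117 CPM. The lowest wild-type sum, 55.4 CPM, was in library 20, with 1.37 CPM of Ngfr. The markers do not separate kinds of cholinergic neuron, and the part of such neurons in the Ngfr level was not tested.

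Sort1 encodes sortilin, a sorting receptor for BDNF and the partner of p75 for precursor neurotrophins. It had 636 to 690 CPM (median 675) in frontal cortex and 487 to 573 CPM (median 514) in striatum of wild-type mice, which did not overlap. In Igf2enh-/- mice it had 579 to 704 CPM (median 662) and 486 to 588 CPM (median 536), and the overlap came from library 1, the lowest of the cortical ones. The log2 difference was -0.38 in wild-type mice (standard error 0.05, adjusted p = 2.8e-07, edgeR) and -0.30 in Igf2enh-/- mice (standard error 0.05, adjusted p = 4.8e-06).

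Vgf encodes a granule protein whose transcription is raised by neurotrophins. It had 220 to 293 CPM (median 253) in frontal cortex and 196 to 288 CPM (median 275) in striatum of wild-type mice, and 228 to 323 CPM (median 261) and 197 to 314 CPM (median 236) in Igf2enh-/- mice. The regions overlapped in both genotypes. The log2 difference was 0.05 in wild-type mice (standard error 0.09, adjusted p = 0.66, edgeR) and -0.13 in Igf2enh-/- mice (standard error 0.08, adjusted p = 0.20).

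Levels of 3 members did not overlap between regions in wild-type mice (Bdnf, Ngfr and Sort1), against 34.5% of the genes tested, and those of 2 members (Bdnf and Ngfr) did not in Igf2enh-/- mice, against 38.3%.

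**Figure D2:**
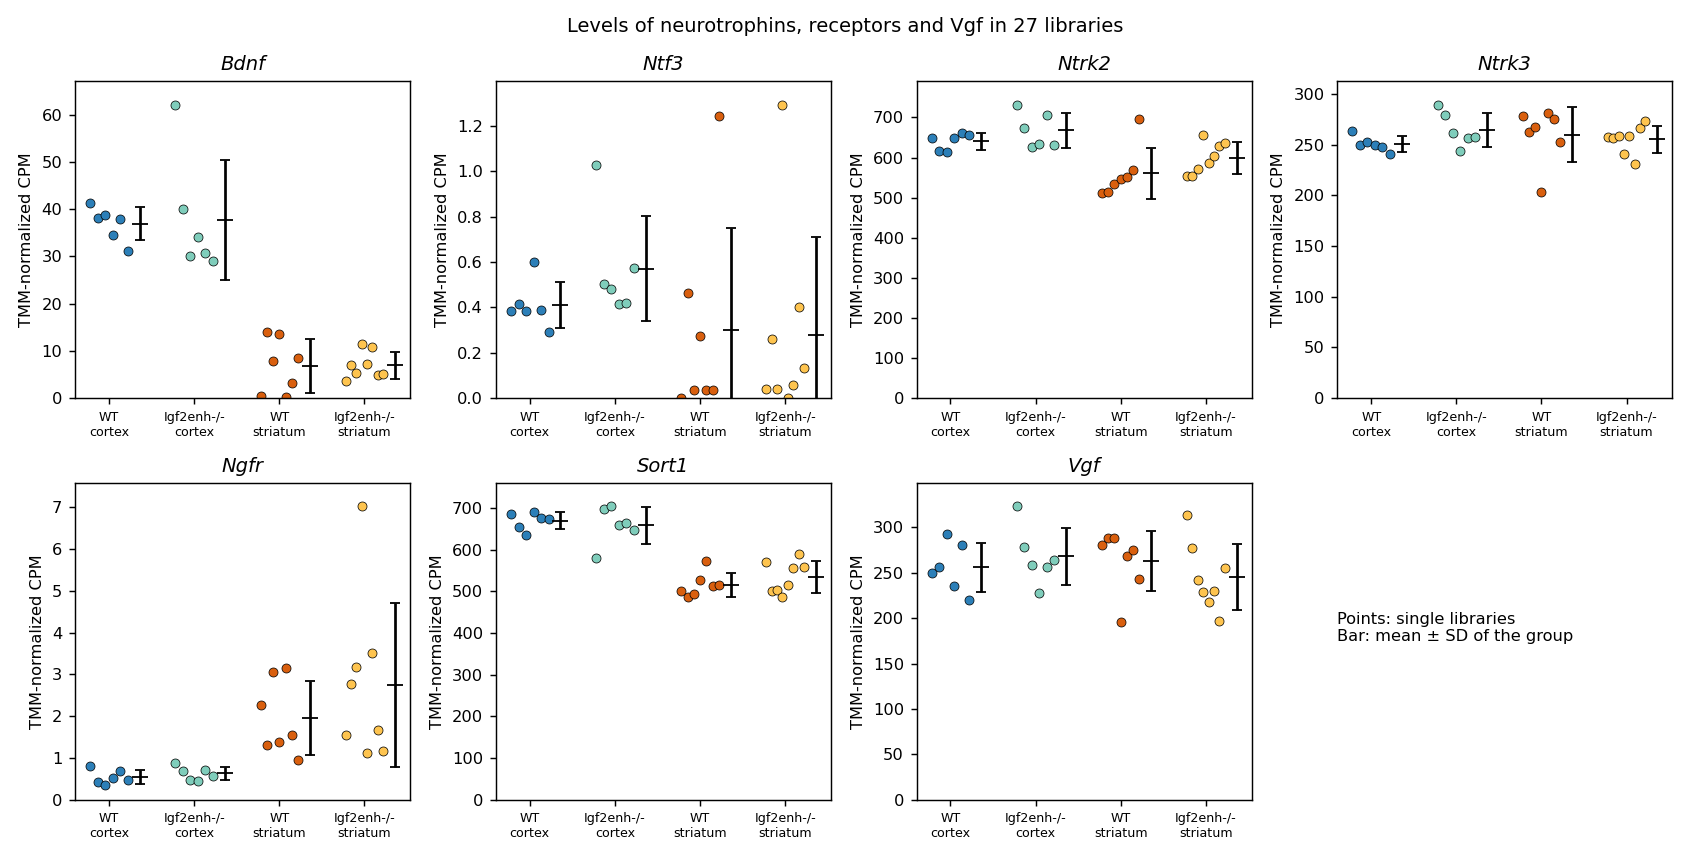
TMM-normalized CPM (vertical axes, from 0) of the 7 genes in wild-type (WT) and Igf2enh-/- cortex and striatum; points are libraries and bars the mean ± SD, with the lower arm cut at 0 for Ntf3. All striatal libraries lie below all cortical ones for Bdnf and above them for Ngfr, and genotypes overlap in every panel.

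Striatal Bdnf, at 0.242 to 14.0 CPM, followed the cortical projection neuron markers across the striatal libraries, a relation examined after the values were seen. Pearson's r of log2(CPM + 0.5) with the log2 of the summed markers was 0.90 (n = 15, permutation p = 1e-05, the smallest that 100000 permutations can give, and 7.0e-05 after Benjamini-Hochberg adjustment over the 7 members). Spearman's rho was 0.96, with the same p-values. Without the 2 libraries farthest from the median of the markers, 20 and 22, r was 0.89. Within genotypes r was 0.96 among the 7 wild-type libraries (exact permutation p = 0.00040, adjusted 0.0028; rho 0.96, exact p = 0.0028, adjusted 0.0097) and 0.89 among the 8 Igf2enh-/- libraries (exact permutation p = 0.0028, adjusted 0.020; rho 0.93, exact p = 0.0022, adjusted 0.016). Bdnf and the markers share the library and its depth. RNA concentration, which was in no fit, was lowest among striatal libraries in library 22 (61.2 ng per µl) and library 14 (154 ng per µl). These also had the least Bdnf. The highest striatal concentrations were 559, 466, 430 and 421 ng per µl, in libraries 23, 26, 19 and 25. Their Bdnf levels were 10.7, 8.52, 11.5 and 4.86 CPM, in the same order. The relation of Bdnf to RNA concentration was not tested. Mean striatal Bdnf was 18.4% of the mean cortical level, and the mean striatal marker sum was 21.2% of that in cortex. Library 22 had 0.648% of the cortical Bdnf level and 6.26% of the marker sum, and library 16 had 37.7% and 35.8%. Within that sum Lamp5 varied little, with 101 ± 15.2 CPM (SD, n = 7) in wild-type striatum and 232 ± 20.7 CPM (SD, n = 6) in wild-type cortex. Slc17a7 had 311 ± 288 CPM (SD, n = 7) in wild-type striatum. The marker sum is thus not a direct measure of the share of cortical tissue. How much of striatal Bdnf came from cortical tissue in the dissections was not tested.

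Ntrk3 moved the other way. Its r with the markers was -0.80 over the 15 striatal libraries (permutation p = 2.0e-05, adjusted 7.0e-05) and rho -0.80 (permutation p = 5.6e-04, adjusted 0.0020), with r = -0.72 without libraries 20 and 22. Within genotypes r was -0.79 in the 7 wild-type libraries (exact permutation p = 0.0012, adjusted 0.0042; rho -0.96, exact p = 0.0028, adjusted 0.0097). In the 8 Igf2enh-/- libraries r was -0.86 (exact permutation p = 0.0066, adjusted 0.023) with rho -0.64 (exact p = 0.096, adjusted 0.23), and without libraries 19 and 23 r was -0.33, so that there the relation rests on those libraries. For the other 5 members r over the 15 libraries lay between -0.48 and 0.46, with adjusted permutation p from 0.15 to 0.76, and rho between -0.44 and 0.57, with adjusted p from 0.065 to 0.72.

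**Figure D3:**
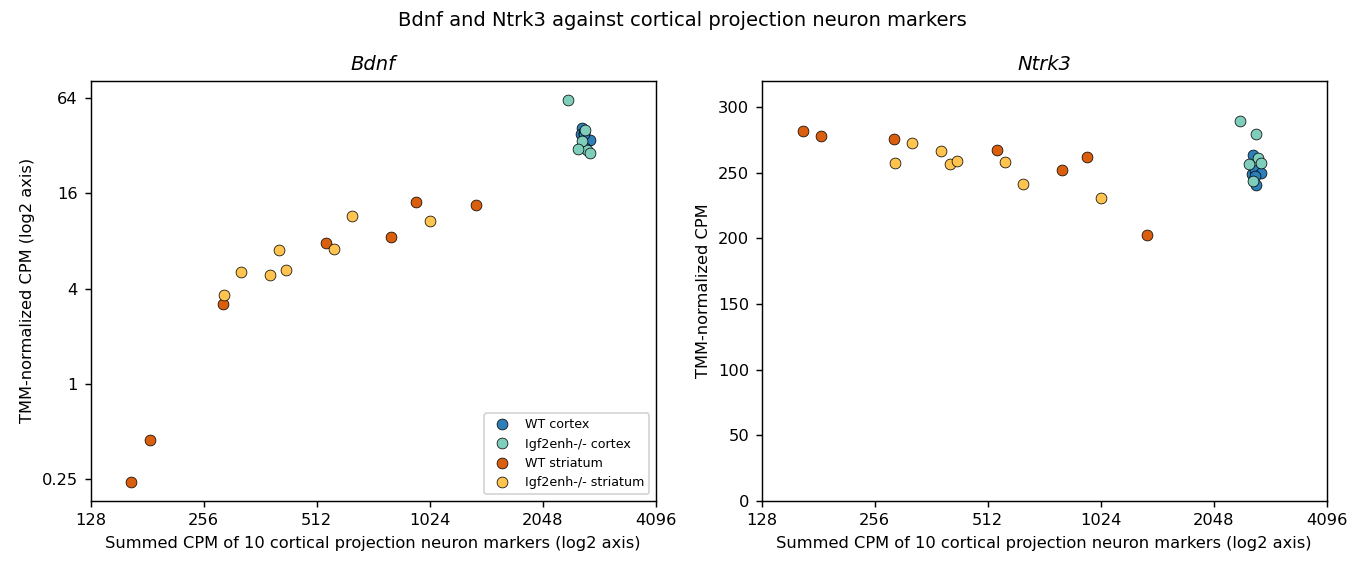
CPM of Bdnf (left, log2 axis) and Ntrk3 (right, linear axis from 0) against the summed CPM of 10 cortical projection neuron markers (log2 axis), 1 point a library, coloured by group. Among the striatal libraries Bdnf rises with the markers (r = 0.90) and Ntrk3 falls (r = -0.80).

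The enhancer deletion was compared with wild type within each region, with sex as a term, over genes that reached 1 CPM throughout the libraries of that region. No member was called for genotype. Of the 5 members tested in frontal cortex 0 passed, against 0.38% of 13936 genes (1877 genes had an unadjusted p under 0.05), and of the 4 tested in striatum 0 passed, against 0.036% of 13875 genes (1394 genes unadjusted). Among the members, Ntrk3 in frontal cortex alone had an unadjusted p under 0.05. DESeq2 and edgeR's likelihood ratio test also called 0 members.

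In frontal cortex the log2 difference of Igf2enh-/- from wild type was 0.02 for Bdnf (standard error 0.13, adjusted p = 0.97 in edgeR), and without library 1 it was -0.15. Ntrk3 had 0.08 (standard error 0.03, unadjusted p = 0.028, adjusted p = 0.30), with 2 of 6 Igf2enh-/- libraries above all wild-type ones. These were libraries 1 and 3, both female, with the lowest cortical RNA concentrations (135 and 136 ng per µl). Leaving out single libraries gave 0.061 to 0.10 for Ntrk3, with adjusted p from 0.19 to 0.47 in edgeR. Ntrk2 had 0.06 (standard error 0.04, adjusted p = 0.56), Vgf 0.07 (standard error 0.07, adjusted p = 0.72) and Sort1 -0.02 (standard error 0.04, adjusted p = 0.88). Ntf3 and Ngfr did not reach the filter and were compared by exact two-sided permutation tests of mean log2(CPM + 0.5), which can reach 0.0022 with 6 against 6. The difference of Igf2enh-/- from wild type was 0.22 for Ntf3 (exact p = 0.093) and 0.12 for Ngfr (exact p = 0.35). For Ntf3 it was 0.11 without library 1 (exact p = 0.20) and 0.27 without the wild-type library 8, where the unadjusted exact p was 0.017. For Ngfr it was 0.063 without library 1 and 0.064 without library 6 (exact p = 0.61 for both), and 0.19 without library 2 (exact p = 0.14).

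In striatum the log2 difference of Igf2enh-/- from wild type was 0.11 for Ntrk2 (standard error 0.06, adjusted p = 0.53 in edgeR), -0.11 for Vgf (standard error 0.09, adjusted p = 0.75), 0.06 for Sort1 (standard error 0.05, adjusted p = 0.75) and -0.03 for Ntrk3 (standard error 0.06, adjusted p = 0.93). Bdnf, Ntf3 and Ngfr did not reach the filter. In exact permutation tests, which can reach 1.6e-04 with 7 against 8, Bdnf differed by 0.62 (exact p = 0.38), Ngfr by 0.29 (exact p = 0.41) and Ntf3 by -0.02 (exact p = 0.94). The Bdnf value rests on the wild-type libraries 22 and 14: it was 0.18 without library 22 (exact p = 0.79) and 0.24 without library 14 (exact p = 0.76). On the linear scale the mean Bdnf levels were 6.83 ± 5.76 CPM (SD, n = 7) in wild-type and 6.91 ± 2.83 CPM (SD, n = 8) in Igf2enh-/- mice, and the medians of 7.79 and 6.16 CPM run the other way. The Ngfr value was 0.093 without library 19 (exact p = 0.73) and 0.18 without library 26 (exact p = 0.62). Ntf3 changed direction with the library left out, with -0.21 without library 19 (exact p = 0.50) and 0.19 without library 26 (exact p = 0.56). Median cortical marker sums were 543 CPM in the wild-type and 416 CPM in the Igf2enh-/- striatal libraries. Levels overlapped between genotypes for all 7 members in both regions.

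**Figure D4:**
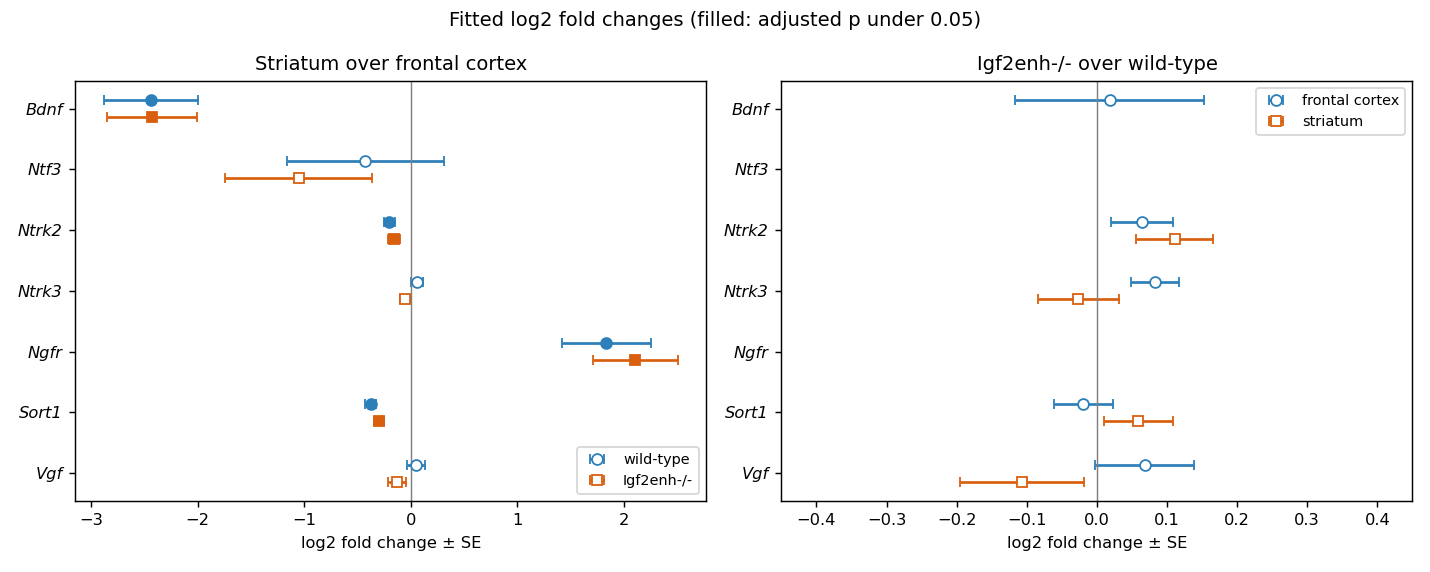
Fitted log2 fold changes with standard errors for striatum over frontal cortex (left) in wild-type and Igf2enh-/- mice, and for Igf2enh-/- over wild type (right) in frontal cortex and striatum; filled symbols passed an adjusted p under 0.05. Members under the filter have no symbol on the right, where no symbol is filled, while Bdnf, Ntrk2, Ngfr and Sort1 are filled on the left.

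The genotype difference was also compared between regions and between sexes. The region by genotype term called 0 of 7 members, against 0% of 17963 genes (550 genes had an unadjusted p under 0.05, and DESeq2 also called 0), and the members' unadjusted p ran from 0.15 for Ntrk3 to 0.99 for Bdnf. The sex by genotype term called 0 of 5 members in frontal cortex, against 0.0215% of genes, and 0 of 4 in striatum, against 0% (355 genes unadjusted, and 2 called by DESeq2). For cortical Bdnf the term was -0.30 on the log2 scale (standard error 0.27, adjusted p = 0.82 in edgeR). Its level was 44.0 ± 16.5 CPM (SD, n = 3) in Igf2enh-/- females, who include library 1, and 31.3 ± 2.64 CPM (SD, n = 3) in Igf2enh-/- males.

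The other ligands and receptors numbered 10 and were related to the members by family or binding. Of the 9 tested between regions, 2 were higher and 5 lower in striatum in wild-type mice, and 3 and 5 in Igf2enh-/- mice. These counts, and those of the lists below, stand against all genes tested. Of those, 32.6% were higher and 30.8% lower in wild-type mice, and 33.2% and 31.6% in Igf2enh-/- mice. Their median log2 difference was -0.30 and -0.25, where that of all genes was 0.02 in both. Sorl1, a sorting receptor of the sortilin family, fell by 1.10 on the log2 scale in wild-type and by 1.06 in Igf2enh-/- mice from cortex to striatum (adjusted p = 7.7e-12 and 6.9e-12 in edgeR). Sorcs2, the sortilin relative that binds proBDNF, was higher in striatum by 1.19 in both genotypes (adjusted p = 1.4e-10 and 8.3e-11). Ntf5, which encodes neurotrophin-4, was too scarce to be tested.

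Of 17 genes for processing, granules and transport, 4 were higher and 12 lower in striatum in wild-type mice, and 3 and 11 in Igf2enh-/- mice, with median log2 differences of -0.22 and -0.27. The convertases Pcsk1 and Pcsk2, which cleave precursors in granules, and the granule protein Chgb had the smallest p. Pcsk1 fell by 1.54 and 1.49 on the log2 scale in wild-type and Igf2enh-/- mice, Pcsk2 fell by 0.63 and 0.46, and Chgb fell by 0.76 and 0.81 (adjusted p from 1.1e-10 to 2.5e-08 in edgeR).

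Of 20 Trk and p75 signalling genes, 4 were higher and 5 lower in striatum in wild-type mice, and 5 and 6 in Igf2enh-/- mice, with median log2 differences of 0.00 and -0.01. Gab1, a docking protein downstream of receptor kinases, was higher by 1.11 and 1.12, and the phosphatase Ptpn11 by 0.61 and 0.60 (adjusted p from 7.8e-11 to 2.7e-10 in edgeR). The adaptor Grb2 fell by 0.19 in wild-type and by 0.15 in Igf2enh-/- mice (adjusted p = 5.2e-06 and 3.7e-05), and Traf6, an adaptor of p75, was higher by 0.30 and 0.36 (adjusted p = 7.7e-05 and 3.8e-06). Of 18 activity-regulated genes, to which Bdnf itself would belong, 1 was higher and 3 lower in striatum in wild-type mice, and 2 and 4 in Igf2enh-/- mice. Nptx2, a secreted synaptic pentraxin, fell by 0.93 and 0.88, the phosphatase Dusp6 fell by 0.95 and 0.85, and the phosphatase Dusp4 had log2 differences of -1.78 and -1.61 (adjusted p from 3.4e-08 to 1.7e-05).

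By edgeR's quasi-likelihood test genotype called 0 of the 62 genes of these 4 lists tested in frontal cortex (19 with an unadjusted p under 0.05) and 0 of 63 in striatum (14 unadjusted). Of those under 0.05 unadjusted, 10 in frontal cortex and 8 in striatum were among the 18 activity-regulated genes. Among all genes, 1877 of 13936 in frontal cortex and 1394 of 13875 in striatum had an unadjusted p under 0.05. The lists were read by this test alone. The median log2 difference lay between -0.02 and 0.04 for the first 3 lists, and was -0.35 in frontal cortex and -0.33 in striatum for the activity-regulated genes, against 0.00 over all genes in both. In that list Inhba came first by p in frontal cortex, with 0.40 (adjusted p = 0.060), before Egr4 with -0.60 (adjusted p = 0.21) and Dusp1 with -0.68 (adjusted p = 0.24). In striatum Dusp1 had -0.66 (adjusted p = 0.16), Arc -0.95 (adjusted p = 0.21) and Junb -0.67 (adjusted p = 0.34).

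Genes of the most similar pattern were sought over all 27 libraries after the mean of each region was removed, among 14906 genes with a mean of at least 1 CPM. Nearest to Bdnf were Rtn4rl2 (r = 0.97), Neurod6 (r = 0.96) and Bmp3 (r = 0.96), and Neurod6 is one of the cortical markers. Nearest to Ntf3 were Nrp2 (r = 0.85), Zic2 (r = 0.84) and Col6a3 (r = 0.83). Nearest to Ntrk2 were Fam171b (r = 0.85), Enah (r = 0.82) and Kcnd3 (r = 0.81), and nearest to Ntrk3 were Marchf4 (r = 0.90), Tac1 (r = 0.90), a medium spiny neuron marker, and Efnb2 (r = 0.89). Ngfr was nearest to Ywhaq (r = 0.76), Igsf1 (r = 0.73) and Sparc (r = 0.72), Sort1 to Fam168a (r = 0.83) and Dpp8 (r = 0.81), and Vgf to Ptprn (r = 0.82), Fam162a (r = 0.80) and Puf60 (r = 0.78). These correlations describe libraries that share depth and tissue composition and carry no test.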

How the data were processed

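The authors used Trim Galore 0.5.0 for trimming the 75-base single-end reads and STAR for alignment to GRCm38, and deposited raw read counts per gene, without normalization or filter. The strand setting of the counting is not given in the sources used here. The deposited tables held 0 columns from other series. Groups were read from the sample labels, which do not tie cortical to striatal libraries of the same mouse. Genotype tests within a region were judged against the spread between libraries, each from a different mouse. Fits across regions treated all libraries as independent, though some may share a mouse. Counts were tested in R 4.3.3 with edgeR 4.0.16 (TMM, quasi-likelihood F-test, sex as a term, Benjamini-Hochberg adjustment, threshold 0.05). Genotype fits used genes reaching 1 CPM throughout the region's libraries, and region fits used filterByExpr. Members under the filter were compared by exact permutation of mean log2(CPM + 0.5). Alternatives were the likelihood ratio test, DESeq2 1.42.0, other scalings and filters, no sex term and leaving out libraries. The fits were tested on simulated data. Of 200 genes given a log2 change of 0.8, they recovered 97.5% for genotype in frontal cortex, 94% for genotype in striatum and 81% between regions in wild-type mice, with 16, 11 and 9 false calls among the unchanged genes. The members' fitted genotype differences reached only 0.11 in size, and recovery of changes that small was not tested. In the data 63.4% of genes were called between regions in wild-type mice, far more than were changed in the simulation. Of 143 listed genes 141 were matched. The members and lists were chosen with earlier results of these data known. All members are named, and from each list the counts called and up to 3 genes of smallest p. Values of 2 genes that these rules would name are left out here. From each marker list the gene of highest level is named where the list is described. Positions and promoters are from RefSeq (GRCm38.p6), read by gene symbol. Python 3.11.15 and matplotlib 3.10.9 drew the figures.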

Additional observations from a re-analysis of the deposited data

Results flagged for a closer look

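Of 28 sets of levels (7 members in 4 groups), 4 held a library whose gap to its neighbour was large against the range of the group on the log2(CPM + 0.5) scale, by Dixon's 95% criterion, where chance alone gives about 1 in 20. Ntf3 in Igf2enh-/- frontal cortex had a gap of 0.685 of the range at library 1, with 1.03 CPM from 26 reads. Ntf3 in Igf2enh-/- striatum had a gap of 0.541 at library 19, with 1.29 CPM from 35 reads. Ntrk2 in wild-type striatum had a gap of 0.655 at library 26, with 696 CPM. Ntrk3 in wild-type striatum had a gap of 0.668 at library 20, with 203 CPM, and the same library had the highest cortical marker sum of all striatal libraries, 1364 CPM, and the lowest medium spiny neuron sum, 3788 CPM. Whether these marker levels account for its Ntrk3 level was not tested. No difference of a member's genotype effect between regions or sexes passed the test.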

How the results depend on the processing

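Of 504 refits of single members for genotype and region, 497 kept the direction and the side of the threshold, 4 changed direction and 3 newly passed. Cortical Bdnf for genotype changed to -0.15 without library 1, -0.01 without library 4 and -0.0035 without library 6, and cortical Sort1 to 0.014 without library 1, none of them past the threshold. Leaving out single libraries gave -0.15 to 0.10 for cortical Bdnf and -0.042 to 0.014 for cortical Sort1. Between regions, Ntrk3 in wild-type mice passed without library 20 and, chosen after seeing the data, without libraries 15 and 20 together (0.11), and Ntf3 in Igf2enh-/- mice passed without library 19. The members called between regions stayed at 4 or 5 when single libraries were left out, and became 2 in both genotypes with at least 1 CPM in all 27 libraries, since Bdnf, Ngfr and Ntf3 are then not tested. Striatal Ntf3 changed to 0.0053 (exact p = 1.00) with an added 0.1 CPM. Leaving out single libraries, the exact tests gave 0.11 to 0.27 for cortical Ntf3 (exact p under 0.05 without library 8 alone, 0.017), 0.063 to 0.19 for cortical Ngfr, 0.18 to 0.90 for striatal Bdnf, 0.093 to 0.41 for striatal Ngfr and -0.21 to 0.19 for striatal Ntf3. No edgeR or DESeq2 alternative called a member for genotype.

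Counts over all genes for genotype depended on the test. In frontal cortex 53 genes became 232 with edgeR's likelihood ratio test, 247 with DESeq2 and 459 without a filter, and 8 to 99 when single libraries were left out, with the fewest without library 10 and the most without library 1. In striatum 5 became 56, 112 and 10 in the same order, 13 with filterByExpr, 3 without the sex term, 39 with a term for the cortical markers, which was chosen after seeing the data, and 3 to 8 without single libraries. For the sex by genotype term, 3 in frontal cortex became 12, 8 and 310, and 0 in striatum became 1 with the likelihood ratio test and 2 with DESeq2. The causes were not tested. No paired analysis was possible because the labels number the libraries 1 to 27 and do not tie those of the same mouse. At these depths Ntf3 rests on few reads in both regions, Ngfr in frontal cortex, and Bdnf in striatal libraries 22 and 14 (7 and 11 reads). Small differences in Ntf3 and in cortical Ngfr were not detectable.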
